A study of Gallus gallus with 12 samples.

Results

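The miRNAs described here are gga-miR-126-3p, known from endothelial cells, gga-miR-451, known from red blood cells, and gga-miR-16-5p, which is abundant in red blood cells and present in most tissues. They were chosen by name, as miRNAs of vessels and of blood, and are 3 of the 38 miRNAs listed for chicken breast muscle. Small RNA of 6 pedigree male broilers (PeM) was set against that of 6 Barred Plymouth Rock chickens (BPR). PeM are modern meat-type birds of a commercial pedigree line, and BPR are a foundational, slower-growing breed kept at a university, so breed and origin of the birds cannot be told apart. The labels give an age of 8 weeks for all 12 birds and no treatment. The PeM birds carry the numbers 1, 4, 5, 8, 10 and 16 and the BPR birds the numbers 1, 2, 3, 4, 6 and 7. Each bird gave 1 library of bulk breast muscle tissue. The questions were how abundant and how variable each miRNA was in each breed, whether the vessel miRNA and the red blood cell miRNAs varied together from bird to bird, and whether the miRNAs and the ratios among them differed between PeM and BPR.

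A mature miRNA is a short RNA that guides an Argonaute protein to messenger RNAs with a matching site, which are then repressed. miR-126 lies inside EGFL7, a gene of endothelial cells, in the RefSeq annotation of the chicken assembly GRCg7b as in mammals, and its loss in mouse and zebrafish embryos can lead to leaky vessels. miR-451 is known for red blood cell maturation, and in mouse and zebrafish it is cut from its precursor by the Argonaute protein AGO2 instead of by Dicer. Its gene in the annotation, MIR451B, carries MIR451 as a synonym and neighbours MIR144, another erythroid miRNA. miR-16-5p has 2 genes in the annotation, MIR16-1 beside MIR15A and MIR16-2 beside MIR15B within SMC4. They share one mature name, so the reads of the 2 genes cannot be told apart. In human cells miR-16 restrains the cell cycle. Chicken red blood cells keep their nucleus, unlike those of mammals. Blood can stay in the vessels of muscle tissue that is flash frozen. Both endothelial and red blood cell miRNAs can then reach the library along with those of the muscle fibres. How much blood these samples held is not described. In such bulk RNA, fewer cells of a type and less RNA per cell cannot be told apart.

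The values are RPM, the reads of a miRNA scaled to a common total in each bird. The totals behind them, estimated as those with which most values are whole reads, were 3021 to 9120 reads in PeM and 4784 to 12454 reads in BPR, and with them all 36 values of the 3 miRNAs came out as whole reads. A single read was then worth 80.3 to 331 RPM. These totals are far below the clean reads the study describes for the libraries, and the step between the 2 was not examined, so read numbers and counting errors given here hold only if the estimated totals are the reads counted. The log2 total differed between PeM and BPR by -0.66 (exact two-sided permutation p = 0.0584). The labelled tissue was borne out by miR-1a-3p, the most abundant miRNA of striated muscle, which ranked first of the 38 in all 12 libraries.

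miR-126-3p had a higher RPM in the PeM libraries, at nearly the same level in all 6 birds. In PeM it lay between 68782 and 77127 RPM, with a median of 70795 RPM, and in BPR between 33001 and 70318 RPM, with a median of 48546 RPM. The 6 PeM birds had 71396, 71957, 77127, 68782, 70194 and 69847 RPM (birds 1, 4, 5, 8, 10 and 16), and the BPR birds 49122, 43923, 33001, 51765, 70318 and 47971 RPM (birds 1, 2, 3, 4, 6 and 7). All BPR birds but number 6 were below every PeM bird, and BPR bird 6 lay among the PeM birds. The mean was 71550 ± 2956 RPM in PeM and 49350 ± 12200 RPM in BPR (SD, n = 6 each). It made up 6.88 to 7.71% of a library in PeM and 3.30 to 7.03% in BPR, and ranked 3 of the 38 miRNAs in every PeM bird and 3 to 5 in the BPR birds.

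**Figure D1:**
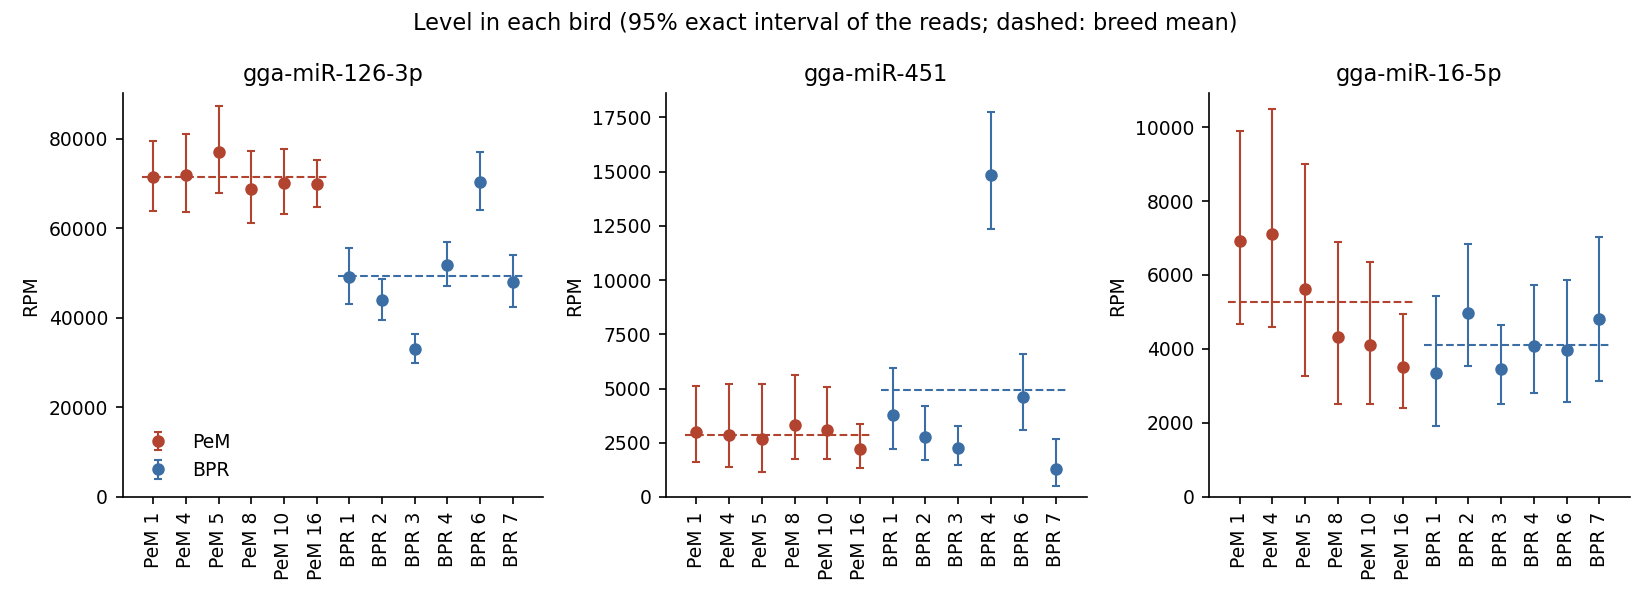
RPM of miR-126-3p, miR-451 and miR-16-5p in each of 6 PeM and 6 BPR birds, 1 point a bird, with bars for the exact 95% counting interval of its reads and dashed lines for the mean of the breed. The PeM points of miR-126-3p lie between 68782 and 77127 RPM, above 5 of the 6 BPR birds, whereas miR-451 stands out in BPR bird 4 at 14861 RPM.

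The difference in miR-126-3p passed the limma test, though the BPR birds alone ranged over 2.13-fold. The log2 fold change of PeM over BPR was 0.57 (SE 0.16, 95% interval 0.22 to 0.92), a 1.49-fold higher RPM. RPM is a share of the reads, and these libraries alone do not show whether the muscle holds more of the miRNA. By limma the unadjusted p was 0.00372 and the Benjamini-Hochberg adjusted p over the 38 miRNAs 0.0283, and by exact two-sided permutation of the birds p was 0.00866. At the study's thresholds (fold change above 1.2 with a limma p below 0.05 before adjustment), miR-126-3p was 1 of 8 miRNAs called (21.1% of 38) and 1 of 7 called higher in PeM (18.4%). It was also 1 of 5 with an adjusted p under 0.05 (13.2%), ranking 5 of 38 by p and 8 of 38 by the size of the log2 fold change. The adjusted p was between 0.0021 and 0.117 over the processing alternatives other than the replicate block. It was above 0.05 after centring birds on their median miRNA, when the exact permutation p was adjusted (0.0658) and in 7 of the 12 fits that left out a bird, while the unadjusted p stayed at or below 0.0153 in all of these.

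**Figure D2:**
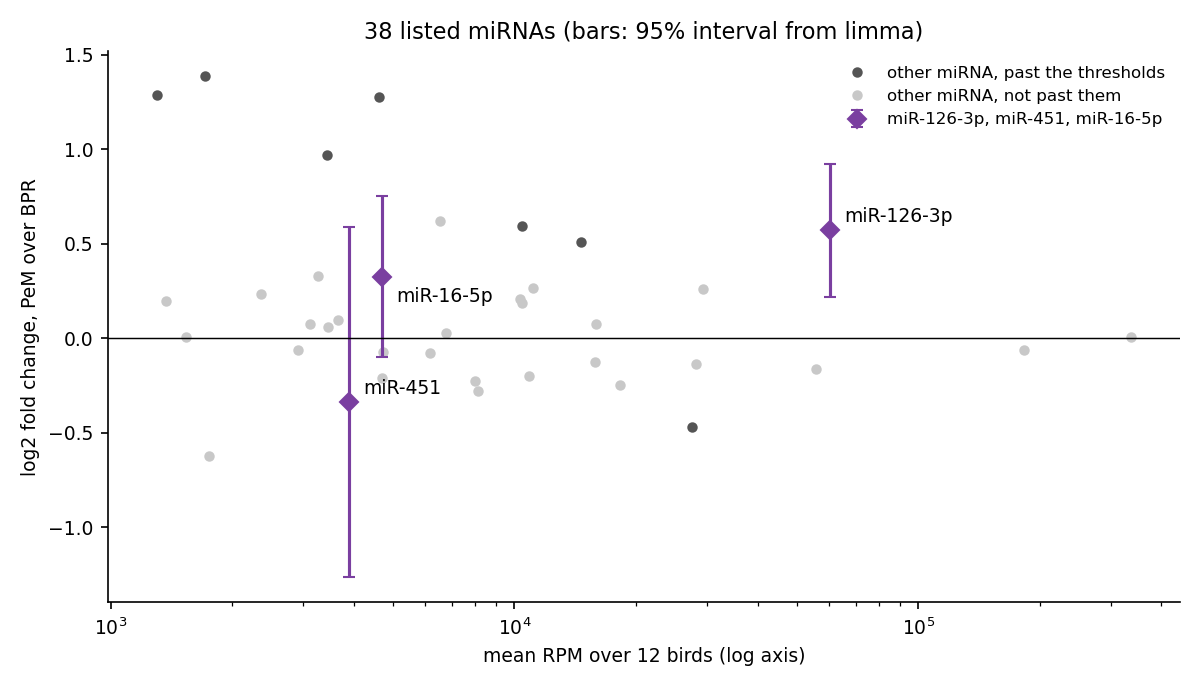
Log2 fold change of PeM over BPR against mean RPM over the 12 birds (log axis) for all 38 miRNAs, with 95% intervals from limma for the 3 named miRNAs and dark points for other miRNAs past the thresholds. miR-126-3p lies at 0.57 among the miRNAs called, while miR-16-5p at 0.32 and miR-451 at -0.34 were not called.

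BPR bird 6 accounted for the overlap of the breeds. Its 443 reads gave an exact 95% counting interval of 64124 to 76912 RPM, while the upper limits of the other 5 BPR birds ran only from 36290 to 56823 RPM. Without that bird, every PeM value by construction exceeded every BPR value. The BPR mean was then 45156 ± 7358 RPM (n = 5), and the log2 difference was 0.68. That bird was singled out for its overlap after the values were seen, so no test is given without it. With all 12 birds, only 1 of the 38 miRNAs (2.63%) had no overlap between the breeds, and it was none of the 3. Leaving out BPR bird 4, the bird highest in miR-451, gave 0.59 (exact permutation p = 0.00866).

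The spread of miR-126-3p was below counting error in PeM and 4.52 times counting error in BPR. The coefficient of variation was 4.13% in PeM, where reads alone give 5.56%, and 24.7% in BPR, where reads alone give 5.47%. The highest PeM bird was 1.12-fold above the lowest, and the highest BPR bird was 2.13-fold above the lowest. The mean absolute deviation of log2(RPM) from the breed median was 0.0388 in PeM, the lowest of the 38 miRNAs in that breed, and 0.227 in BPR. The difference of -0.19 did not pass the exact permutation test (p = 0.0996, adjusted p = 0.524 over the 38 miRNAs), and its direction turned, to 0.10, when birds were centred on their median miRNA (exact permutation p = 0.320). Across the 38 miRNAs, 4 (10.5%) had a difference in spread with an unadjusted exact permutation p under 0.05, and 15 of 38 had the smaller spread in PeM.

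The level of miR-126-3p ran against the read total of the birds. Over the 12 birds it correlated with the log2 total at r = -0.69 (permutation p = 0.0133, adjusted p = 0.168 over the 38 miRNAs) and rho = -0.68 (permutation p = 0.0184). Without the 2 birds farthest from the median total r was -0.70 (permutation p = 0.0290), and within breeds it was -0.57 in PeM (exact permutation p = 0.231) and -0.63 in BPR (exact permutation p = 0.168). It also correlated with the share of a library taken by the 38 miRNAs, at r = 0.79 (permutation p = 0.00279, adjusted p = 0.106) and rho = 0.74 (permutation p = 0.00815), which became 0.51 (permutation p = 0.136) without the 2 birds farthest from the median share. Within breeds that r was 0.15 in PeM (exact permutation p = 0.714) and 0.65 in BPR (exact permutation p = 0.147). miR-126-3p is itself counted in that share, so this relation is partly built in. The part of the read total in the difference between the breeds was not tested.

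No difference in miR-451 between the breeds passed the test, and BPR birds held both its highest and its lowest levels. In PeM it lay between 2193 and 3299 RPM and in BPR between 1292 and 14861 RPM. The PeM birds had 3004, 2844, 2648, 3299, 3088 and 2193 RPM, and the BPR birds 3763, 2753, 2248, 14861, 4603 and 1292 RPM. BPR birds 1, 4 and 6 were above every PeM bird and BPR bird 7 was below every PeM bird, so that the BPR range enclosed that of PeM. The values rested on 8 to 20 reads in PeM and 7 to 120 reads in BPR.

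BPR bird 4 stood apart in miR-451. Its 120 reads gave 14861 RPM with an exact 95% counting interval of 12336 to 17744 RPM, and the next bird, BPR bird 6 with 29 reads, had an upper limit of 6604 RPM. In BPR bird 4 miR-451 ranked 12 of the 38 miRNAs, against ranks of 29 to 32 in the PeM birds and 25 to 36 in the other BPR birds. The same bird was within the range of the other BPR birds in miR-126-3p, with 51765 RPM, and in miR-16-5p, with 4087 RPM.

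The log2 fold change of miR-451, PeM over BPR, was -0.34 (SE 0.43, 95% interval -1.27 to 0.59). By limma the unadjusted p was 0.448 and the adjusted p 0.774, and the exact permutation p was 0.593. The mean was 2846 ± 388 RPM in PeM and 4920 ± 5005 RPM in BPR (SD, n = 6 each). Without BPR bird 4 the BPR mean was 2932 ± 1292 RPM (n = 5), and the log2 difference was 0.07 (exact permutation p = 0.833), so the sign turned on that bird.

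Among these birds, RPM of miR-451 was more even in PeM, but the difference in spread did not pass adjustment. Its coefficient of variation was 13.6% in PeM, below the 29.3% of counting error, and 101.7% in BPR, where counting error was 17.2%. The mean absolute deviation of log2(RPM) from the breed median was 0.148 in PeM and 0.835 in BPR, the highest of the 38 miRNAs in BPR. The difference of -0.69 passed the unadjusted exact permutation test (p = 0.0173) but not the adjustment over the 38 miRNAs (adjusted p = 0.219). Without BPR bird 4 it was -0.37 (exact permutation p = 0.0671), with a BPR coefficient of variation of 44.1%, and the p stayed under 0.05 in 5 of the 12 fits that left out a bird. When birds were centred on their median miRNA the difference was -0.47 (exact permutation p = 0.290).

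miR-16-5p was higher in some PeM birds, and the difference did not pass the test. It lay between 3509 and 7110 RPM in PeM and between 3344 and 4982 RPM in BPR. The PeM birds had 6932, 7110, 5627, 4315, 4117 and 3509 RPM, and the BPR birds 3344, 4982, 3453, 4087, 3968 and 4797 RPM. PeM birds 1, 4 and 5 were above every BPR bird, and BPR birds 1 and 3 were below every PeM bird, with the rest overlapping. The values rested on 17 to 32 reads in PeM and 16 to 43 reads in BPR.

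The mean of miR-16-5p was 5268 ± 1524 RPM in PeM and 4105 ± 674 RPM in BPR (SD, n = 6 each). The log2 fold change was 0.32 (SE 0.20, 95% interval -0.10 to 0.75), with an unadjusted limma p of 0.125, an adjusted p of 0.395 and an exact permutation p of 0.126. The interval reaches from a slightly lower level in PeM to the size of the miR-126-3p difference and beyond. Without BPR bird 4 the log2 fold change was 0.33 (exact permutation p = 0.171). Without PeM bird 16 it was 0.43, but leaving out the lowest PeM bird raises the difference by construction. The unadjusted limma p was under 0.05 in that fit alone of the 12 that left out a bird (adjusted p = 0.181). The coefficient of variation was 28.9% in PeM against 21.9% from counting error, and 16.4% in BPR against 19.1%. The spread differed by 0.18 (exact permutation p = 0.0714, mean absolute deviation 0.359 in PeM and 0.182 in BPR), and by -0.0540 when birds were centred on their median miRNA (exact permutation p = 0.502).

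miR-16-5p also ran against the read total, at r = -0.63 (permutation p = 0.0299, adjusted p = 0.191) and rho = -0.64 (permutation p = 0.0300), but r was -0.47 (permutation p = 0.176) without the 2 birds farthest from the median total. Within breeds it was -0.69 in PeM (exact permutation p = 0.0944) and -0.15 in BPR (exact permutation p = 0.778). For miR-451 the same r was 0.10 (permutation p = 0.759) and rho -0.14 (permutation p = 0.668). Of the 38 miRNAs, 8 had an unadjusted permutation p under 0.05 against the read total.

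In the order of mean RPM over the 12 birds, miR-126-3p was 3 of 38, miR-16-5p was 24 and miR-451 was 26. miR-126-3p, at a mean of 60450 RPM, was below miR-30c-5p, at 182801 RPM, in 12 of 12 birds (exact sign-flip permutation p = 0.000488). Over both breeds together it could not be told from miR-17-5p, at 55674 RPM, which it exceeded in 7 of 12 birds (exact sign-flip permutation p = 0.503). Those were every PeM bird and BPR bird 6, so the order went largely by breed, which a test over both breeds cannot show. miR-16-5p, at 4687 RPM, differed by less than the spread between birds from its neighbours miR-24-3p and miR-221-5p (exact sign-flip permutation p = 0.841 and 0.403). miR-451, at 3883 RPM, likewise was not told apart from miR-221-5p and miR-21-5p (exact sign-flip permutation p = 0.281 and 0.563). These are shares of reads, and RPM of different mature miRNAs also carry how readily each one is ligated and amplified.

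No correlation over birds between the vessel miRNA and the red blood cell miRNAs passed the test. Of the 703 pairs of miRNAs, 72 (10.2%) had an unadjusted permutation p under 0.05 for the Pearson correlation of log2(RPM), and none of the 3 pairs among these members did. No pair of the 703 had an adjusted p under 0.05, the lowest being 0.0703. The lower and upper quartiles of the 703 correlations were -0.24 and 0.28, with a median of 0.03.

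**Figure D3:**
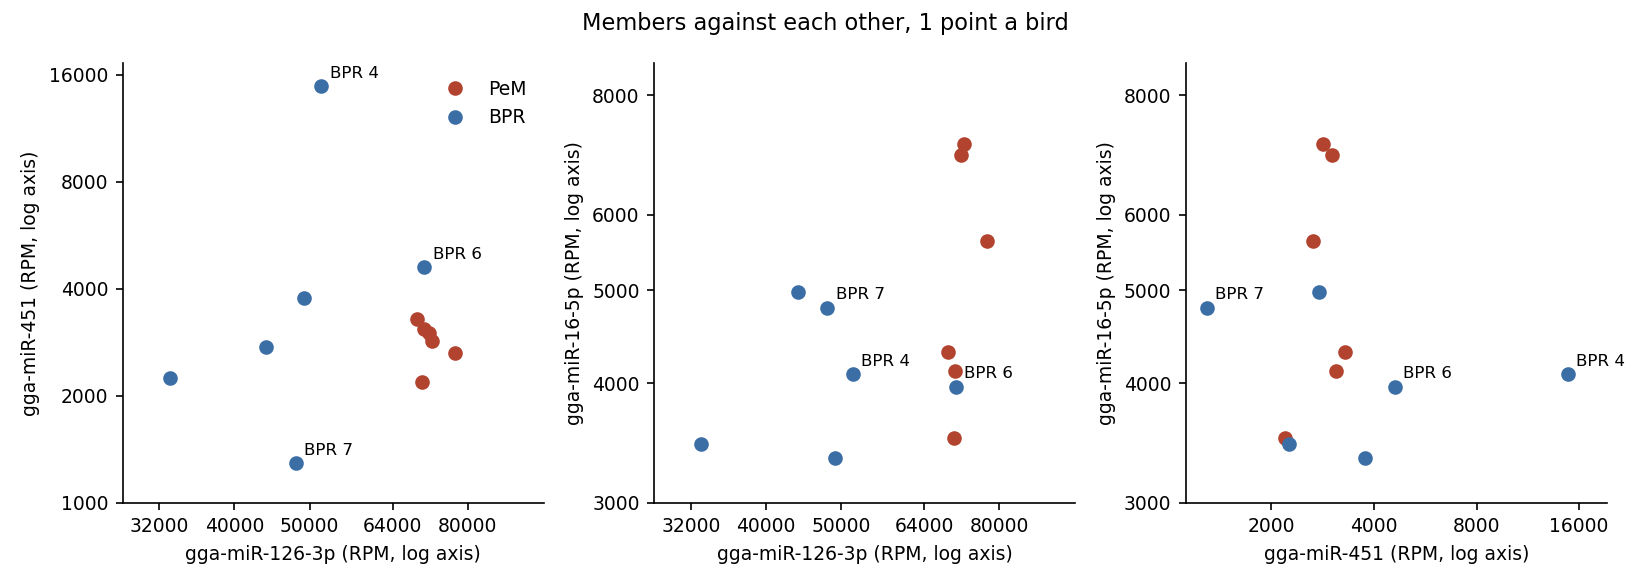
Each of the 3 miRNAs against each other (RPM, log axes), 1 point for each of the 6 PeM and 6 BPR birds. In the first panel the PeM birds fall close together at the right, between 68782 and 77127 RPM of miR-126-3p, and BPR bird 4 stands at 14861 RPM of miR-451 with an ordinary level of miR-126-3p.

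miR-126-3p and miR-451 correlated at r = 0.07 (permutation p = 0.835, adjusted p = 0.952) and rho = 0.17 (permutation p = 0.603) over the 12 birds. Within breeds r was -0.23 in PeM (exact permutation p = 0.624) and 0.40 in BPR (exact permutation p = 0.422), where rho was 0.77 (exact permutation p = 0.103). Without BPR bird 4 r was 0.36 (permutation p = 0.277), and without BPR birds 2 and 3, which lay farthest from the median of miR-126-3p, it was -0.16 (permutation p = 0.636). No setting gave a correlation that passed the test, and the sign changed among them. By the estimated totals, both miRNAs spread less than counting error in PeM. Their coefficients of variation there were 4.13% against 5.56% for miR-126-3p and 13.6% against 29.3% for miR-451. A value of r within PeM that involves either of them therefore cannot show whether the miRNAs vary together.

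miR-126-3p and miR-16-5p correlated at r = 0.44 (permutation p = 0.155, adjusted p = 0.611) and rho = 0.52 (permutation p = 0.0840). With each breed centred on its mean r was 0.14 (permutation p = 0.613), and within breeds r was 0.48 in PeM (exact permutation p = 0.376) and 0.15 in BPR (exact permutation p = 0.818). Without BPR bird 4 r was 0.43 (permutation p = 0.191), and without BPR birds 2 and 3 it was 0.42 (permutation p = 0.235).

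miR-451 and miR-16-5p correlated at r = -0.15 (permutation p = 0.640, adjusted p = 0.904) and rho = -0.20 (permutation p = 0.543). Both are abundant in red blood cells, but miR-16-5p is present in most tissues and does not mark these cells. The value was 0.31 in PeM (exact permutation p = 0.578) and -0.23 in BPR (exact permutation p = 0.701), -0.08 without BPR bird 4 (permutation p = 0.820) and -0.06 without BPR birds 4 and 7, which lay farthest from the median of miR-451 (permutation p = 0.875). BPR bird 4, the highest in miR-451, was below BPR birds 2 and 7 in miR-16-5p. With each bird centred on its median miRNA the correlation was -0.45 (permutation p = 0.148) and rho was -0.69 (permutation p = 0.0156, not adjusted).

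Ratios within a bird do not depend on the RPM scaling. Over all 703 pairs of miRNAs, 177 ratios (25.2%) differed between PeM and BPR at an unadjusted exact permutation p under 0.05, and 35 had an adjusted p under 0.05. The ratio of miR-126-3p to miR-451 was one of the 177 and not of the 35. It lay between 20.8 and 31.9 in PeM, with a median of 24.5, and between 3.48 and 37.1 in BPR, with a median of 15.0. The PeM birds had ratios of 23.8, 25.3, 29.1, 20.8, 22.7 and 31.9, and the BPR birds 13.1, 15.95, 14.7, 3.48, 15.3 and 37.1. The other BPR birds were below every PeM bird, whereas BPR bird 7, with 7 reads of miR-451, was above all of them.

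**Figure D4:**
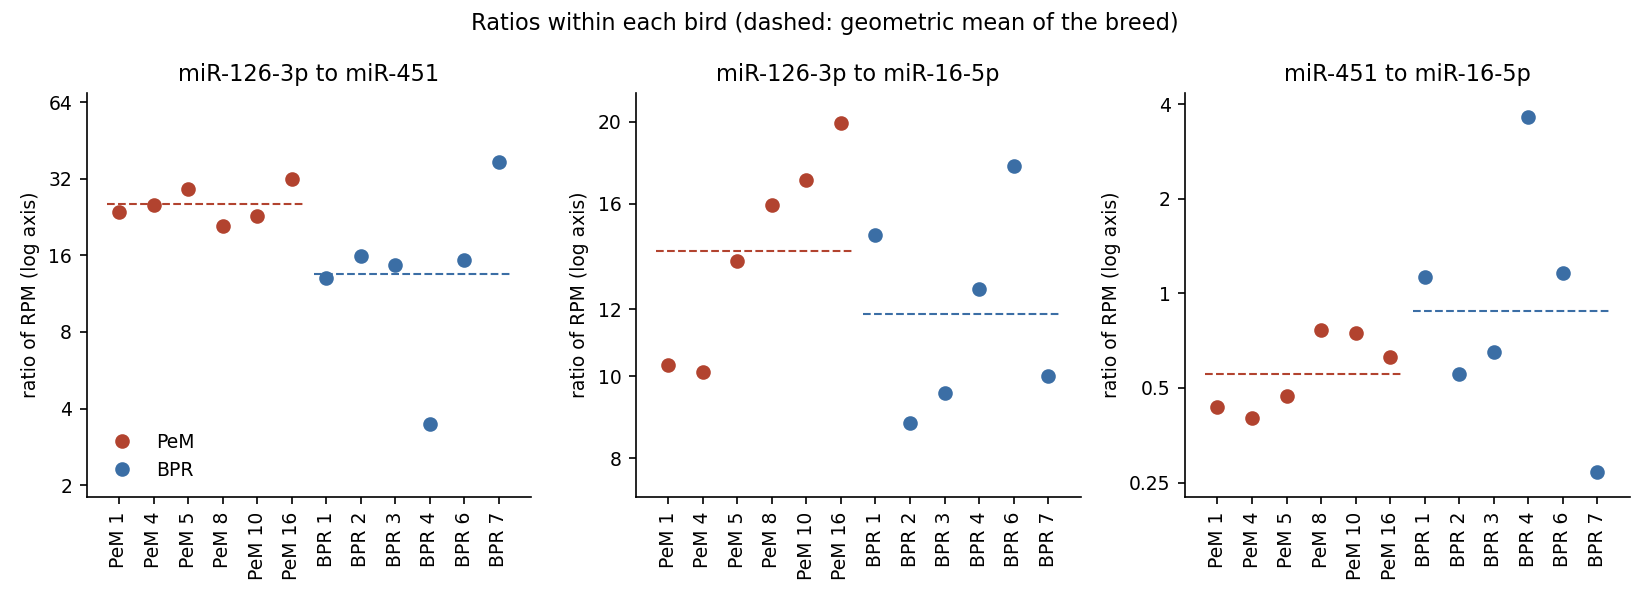
Ratios of RPM (log axes) of miR-126-3p to miR-451, miR-126-3p to miR-16-5p and miR-451 to miR-16-5p in each of 6 PeM and 6 BPR birds, with dashed lines for the geometric mean of the breed. In the first panel the PeM birds lie between 20.8 and 31.9 and the BPR birds between 3.48 and 37.1, with birds 4 and 7 at the 2 ends.

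The mean log2 ratio of miR-126-3p to miR-451 was 4.66 ± 0.23 in PeM and 3.75 ± 1.10 in BPR (SD, n = 6 each). The difference was 0.91 (SE 0.46), a 1.88-fold higher ratio in PeM, with an exact permutation p of 0.0455 and an adjusted p of 0.190 over the 703 pairs. Without BPR bird 4 the difference was 0.52, a 1.43-fold higher ratio (SE 0.29, exact permutation p = 0.0887), and without BPR bird 7, singled out after its ratio was seen, it was 1.201. The p stayed under 0.05 in 1 of the 12 fits that left out a bird, the one without BPR bird 7, and the difference was positive in all 12.

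**Figure D5:**
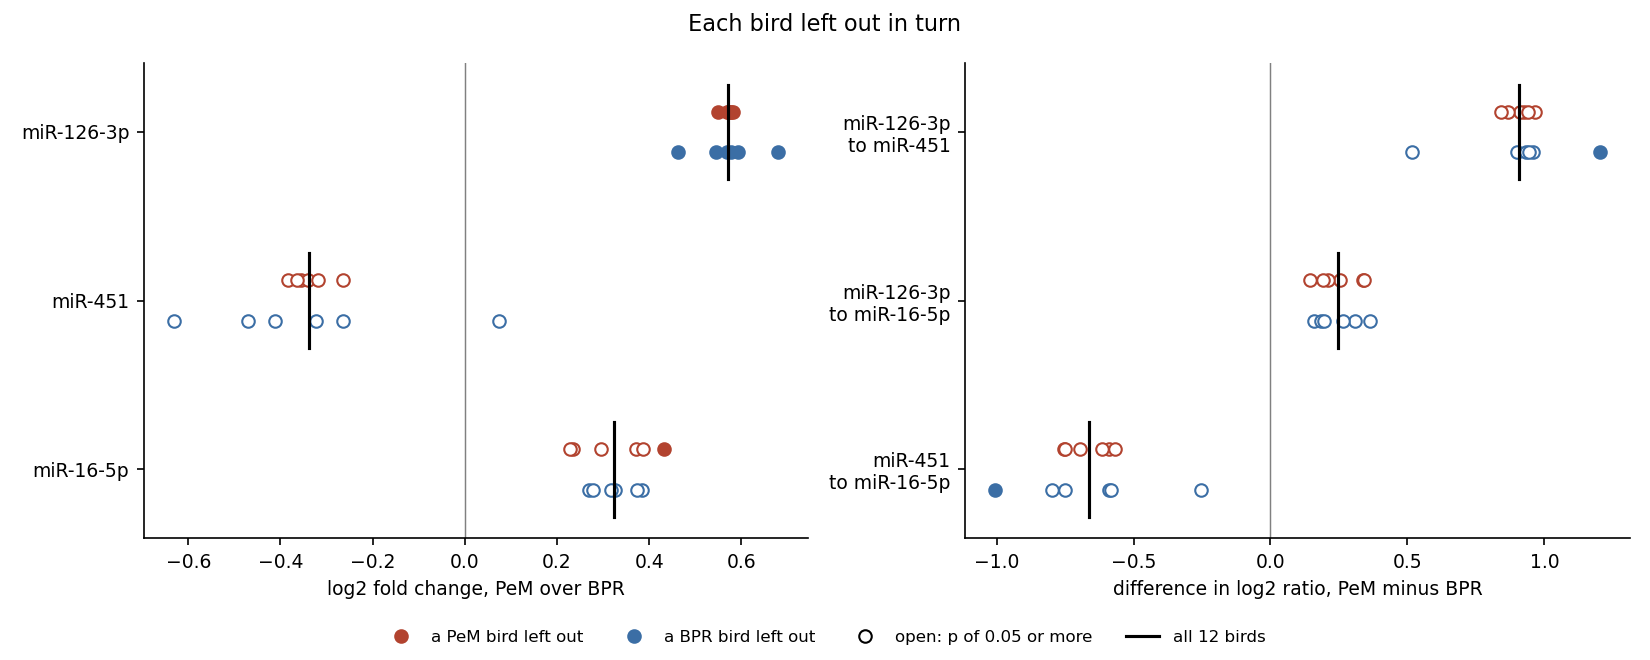
Differences between PeM and BPR on the log2 scale with each of the 12 birds left out in turn, for the 3 miRNAs and the 3 ratios among them, filled where p was under 0.05, with a line at the value over all 12 birds. That of miR-126-3p stays between 0.46 and 0.68, and that of miR-126-3p to miR-451 between 0.52 without BPR bird 4 and 1.201 without BPR bird 7.

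The difference in the ratio of miR-126-3p to miR-16-5p did not pass the test. The ratio was 10.1 to 19.9 in PeM, with a median of 14.8, and 8.82 to 17.7 in BPR, with a median of 11.3. The difference in log2 ratio was 0.25 (SE 0.23, exact permutation p = 0.297, adjusted p = 0.593), and 0.27 without BPR bird 4 (exact permutation p = 0.303). The ratio of miR-451 to miR-16-5p was 0.40 to 0.765 in PeM, with a median of 0.548, and 0.269 to 3.64 in BPR, with a median of 0.888. Its difference of -0.66 (SE 0.54, exact permutation p = 0.266, adjusted p = 0.567) became -0.25 without BPR bird 4 (exact permutation p = 0.530). Without BPR bird 7, the lowest in this ratio and singled out after its ratio was seen, the difference was -1.004. The p was under 0.05 in that fit alone of the 12 that left out a bird.

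Against miR-1a-3p, the miRNA of the muscle fibres, miR-126-3p was higher in PeM by 0.56 in log2 ratio (SE 0.21, exact permutation p = 0.0195, adjusted p = 0.113), and by 0.61 without BPR bird 4 (exact permutation p = 0.0238). The differences for miR-451 and miR-16-5p were -0.35 and 0.32 (exact permutation p = 0.602 and 0.167), and that of miR-451 was 0.09 without BPR bird 4 (exact permutation p = 0.810).

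Lists of miRNAs known from the same cells, which include the 3 members, gave the setting. The lists of cell types are textbook choices made with results of these birds known. Of 11 endothelial and vessel wall miRNAs, 8 were analysed here, of which 3 rose in PeM (miR-126-3p, miR-221-5p and miR-10a-5p) and none fell, where 7 of all 38 miRNAs (18.4%) rose and 1 (2.63%) fell. The log2 fold changes were 1.27 for miR-221-5p and 0.97 for miR-10a-5p, 7 of the 8 were above 0, and their median was 0.45, against 0.07 over all 38 miRNAs, of which 23 were above 0. Their sum ran from 142492 to 198941 RPM in PeM and from 116910 to 159364 RPM in BPR. Several of these 8, such as miR-221 and miR-17, are expressed by many cell types.

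Of 8 red blood cell miRNAs, 3 were analysed here, miR-451, miR-16-5p and miR-22-3p, and none of them was called in either direction, where 8 of all 38 (21.1%) were, so that with 3 miRNAs this count says little about the list. Their sum was 7895 to 15927 RPM in PeM and 7066 to 20805 RPM in BPR, where the highest sum without BPR bird 4 was 11270 RPM. miR-22-3p, a broadly expressed miRNA also found in red blood cells, had a log2 fold change of 0.23 (SE 0.36). The defining erythroid miRNA of the list was miR-451 alone, since miR-144, its neighbour, was not analysed here.

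The list of leukocyte miRNAs held members that rose in PeM beside miR-126-3p. Of 9 such miRNAs 3 were analysed here, and miR-146b-5p, known as a brake on inflammatory signalling, and miR-146c-5p rose in PeM (log2 fold changes 1.28 and 0.51, limma adjusted p = 0.0198 and 0.178), where 7 of all 38 miRNAs (18.4%) rose. The other, miR-21-5p, was not called (log2 fold change 0.10, limma adjusted p = 0.900). The sum of the 3 was 18320 to 32127 RPM in PeM and 11884 to 21176 RPM in BPR. These 3 do not mark leukocytes alone, since the paper also describes miR-146b as a regulator of myoblast differentiation. miR-223, miR-142, miR-150 and miR-155 of the list were not analysed here. Of 8 muscle fibre miRNAs, 4 were analysed here. Among them miR-206 fell in PeM (log2 fold change -0.47, limma adjusted p = 0.104), the only 1 of all 38 (2.63%) that fell. The log2 fold changes of miR-1a-3p, miR-133a-5p and miR-133c-3p were 0.009, -0.08 and 0.19, and none of these was called. The sum of the 4 was 301225 to 422924 RPM in PeM and 349350 to 424683 RPM in BPR. The part of other cell types in the miR-126-3p difference was not tested.

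The miRNAs most like each member from bird to bird were found from log2(RPM) centred on the breed mean, over 12 birds that share the RPM scale. For miR-126-3p they were miR-301b-3p (r = 0.73), miR-146c-5p (0.68) and miR-148a-3p (0.62). Its strongest relation was negative, with miR-221-3p (r = -0.81), which is on the list of endothelial and vessel wall miRNAs. Without the centring these r were 0.41, 0.80 and 0.42, and -0.23 with miR-221-3p. The mean absolute deviation of miR-126-3p was 0.0388 in PeM and 0.227 in BPR, so its centred values rest mainly on the BPR birds. miR-451 was most like miR-221-5p (0.62), miR-21-5p (0.57) and let-7g-5p (0.54), and miR-16-5p most like miR-2131-5p (0.77), miR-148a-3p (0.66) and miR-22-3p (0.64). No member was among the 3 nearest of another member, and miR-148a-3p was near to both miR-126-3p and miR-16-5p.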

How the data were processed

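Total RNA was extracted with TRIzol from frozen breast muscle and small RNA libraries were made with a TruSeq kit. The authors trimmed the reads, aligned them to mature chicken miRNAs, dropped miRNAs whose average was below 5 reads in PeM and in BPR, and deposited RPM of 38 miRNAs per bird. The submitters' processing notes name FastQC and the build galGal5. The authors' columns of means, fold changes and p-values were not used. Gene names came from the RefSeq table of GRCg7b (3 of 3 matched), without coordinates.

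Read totals were found by trying totals from 1000 to 20000 and keeping that with most values within 0.005 of a whole read (443 of 456 values, 97.1%). The limit that a count of 0 allows, 3 reads, was 240.9 to 993 RPM. Exact intervals cover counting error only, at 95% confidence, because PCR copies were not marked by molecular identifiers. Birds of a breed were taken as replicates.

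Breeds were compared on log2(RPM), with no pseudocount and no covariate, by limma 3.58.1 in R 4.3.3, in place of the t-statistic of the study. A miRNA was called at a fold change above 1.2 with p below 0.05 before adjustment. Single values and ratios were tested by exact two-sided permutation of the 12 birds (Python 3.11.15, scipy 1.17.1), and correlations over 12 birds by 100000 permutations. For spreads, the deviations from each breed's own median were permuted between the breeds over all assignments. Those medians come from the same birds, so the p of a spread is approximate. Adjustment was by Benjamini-Hochberg over 38 miRNAs or 703 pairs. The tests were checked on simulated data. The 3 miRNAs, the lists and the rule for other named miRNAs (the 3 most alike and the neighbours in level) were chosen with earlier results of these data known. Alternatives were pseudocounts, scalings, filters, limma-trend, voom, a replicate block and leaving out each bird.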

Additional observations from a re-analysis of the deposited data

Results flagged for a closer look

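miR-451 in BPR bird 4, at 14861 RPM, lay far from the other birds of its breed. Its gap to the next BPR bird, at 4603 RPM, was 0.756 of the range of the 6 BPR birds, and the lowest was at 1292 RPM. The total reads of PeM bird 16, at 9120, likewise lay far above the other PeM birds, with a gap to the next, at 4858, of 0.699 of the range down to 3021. In all, 14 groups of 6 values were examined and 2 held such a bird. Chance marks about 1 in 20 independent groups. The ratios reuse the RPM values, so these groups are not independent and their count cannot be set against that rate. RPM and totals were taken on the linear scale, and gaps in their log2 values were not among the groups examined. In log2(RPM) of miR-451, BPR bird 4 was at 13.86, BPR bird 6 at 12.17 and BPR bird 7 at 10.33. That gap was smaller than the rest of the range. No cause was tested for either bird.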

How the results depend on the processing

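Leaving out each bird in turn gave log2 fold changes of 0.46 to 0.68 for miR-126-3p, -0.631 to 0.0742 for miR-451 and 0.23 to 0.43 for miR-16-5p, with 7 to 10 miRNAs called and 2 to 6 of adjusted p under 0.05 (3 without PeM bird 1 or BPR bird 3, 2 without PeM bird 8). The differences in log2 ratio ran from 0.52 to 1.201 (miR-126-3p to miR-451), 0.15 to 0.36 (miR-126-3p to miR-16-5p) and -1.004 to -0.25 (miR-451 to miR-16-5p), r from -0.0803 to 0.36, 0.30 to 0.54 and -0.23 to -0.08 (miR-126-3p with miR-451, miR-126-3p with miR-16-5p, miR-451 with miR-16-5p), and the differences in spread from -0.23 to -0.12 (miR-126-3p), -0.76 to -0.37 (miR-451) and 0.10 to 0.21 (miR-16-5p). That of miR-126-3p had an exact permutation p of 0.0455 without BPR bird 1 and 0.0368 without BPR bird 7. The differences without BPR bird 4 were 0.0742 for miR-451, 0.52 for the ratio of miR-126-3p to miR-451 and -0.37 for the spread of miR-451.

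The number with an adjusted p under 0.05 was 0 by exact permutation (8 miRNAs were called by it before adjustment) and 3 among miRNAs averaging 2000 RPM or more. The exact p of 6 birds against 6 cannot fall below 0.00216, which limits how low its adjusted p can be. The filter at 2000 RPM takes out miR-2131-5p and miR-146b-5p (means 1716 and 1304 RPM), which had an adjusted p under 0.05 among all 38. The ratio of miR-126-3p to miR-451 differed by 0.71 from medians (exact permutation p = 0.0931). The correlation of miR-126-3p with miR-451 was -0.11 on the linear scale, -0.23 within PeM, -0.0575 after centring birds on their medians and -0.16 without the 2 farthest birds, and that of miR-451 with miR-16-5p was 0.31 within PeM. Centring birds on their medians gave differences in spread of 0.10 for miR-126-3p, -0.47 for miR-451 (exact permutation p = 0.290) and -0.0540 for miR-16-5p, and RPM over the mean gave -0.47 for miR-451. The cause of the other changes was not tested.

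Birds numbered 1 and 4 were present in PeM and BPR but belong to different animals (correlations of their deviations 0.03 and -0.17). Fitting the number as a replicate block used only PeM birds 1 and 4 and BPR birds 1 and 4, among them the bird highest in miR-451. It gave 0.51 for miR-126-3p, which lost its call (limma adjusted p = 0.226). It gave -1.36 for miR-451 and 0.93 for miR-16-5p, which both gained a call before adjustment (limma adjusted p = 0.0599 for each). There were 11 miRNAs called, 2 of adjusted p under 0.05, and differences in log2 ratio of 1.86, -0.42 and -2.28 (miR-126-3p to miR-451, miR-126-3p to miR-16-5p, miR-451 to miR-16-5p). Limma-voom on recovered reads, chosen after seeing the data, gave 0.60 for miR-126-3p. Planned edgeR and DESeq2 fits of recovered reads were not run, because the read totals are estimates from 38 values a bird. By those estimates miR-451 rested on 7 to 29 reads outside BPR bird 4.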
